A study of Sus scrofa with 21 samples.

Results

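The genes described here are 10 genes of endothelial junctions and the endothelial surface: CDH5, PECAM1, ESAM, CLDN5, ROBO4, ECSCR, CD93, CALCRL, ADGRL4 and ENG. They were chosen by name, and a gene was taken as measured where an Ensembl pig gene in the deposited count table carried its symbol. By that rule 9 of the 10 genes were found among the 24358 genes of the table. CLDN5, a claudin of endothelial tight junctions, was not analysed here. All 9 passed the filter on low counts in every comparison below.

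Endothelial cells form the inner lining of blood vessels and are joined to each other by adherens and tight junctions, which hold the layer closed and control passage between cells. CDH5, PECAM1 and ESAM are adhesion proteins of these borders. ROBO4, ECSCR, CD93, CALCRL, ADGRL4 and ENG are proteins of the cell surface that take part in vessel sprouting, vessel stability or the reading of signals from outside the cell. CDH5, ROBO4 and ECSCR are known mainly from endothelium, whereas PECAM1 is also carried by platelets and many white cells, ESAM by platelets, CD93 by monocytes and neutrophils, and ENG by activated macrophages.

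The study tested a 3D-printed microbrush that is moved inside an artery to collect endothelial cells. Total RNA was sequenced from 21 pig libraries: 10 from the microbrush, 4 from a Nitinol wire with no brush as negative control, 4 from surgically taken aorta as positive control and 3 from whole blood. Of the microbrush libraries, 5 came from peripheral kidney arteries and 5 from peripheral liver arteries, and the wires gave 2 of each. Microbrush and wire libraries were split evenly between pigs 243K and 248K, blood 1 and 2 came from pig 243K and blood 3 from pig 248K, and all 4 aorta libraries came from pig 237053. The labels name no strain, age or treatment, and they do not say whether the pieces of aorta were separate vessel segments. Because several libraries share a pig, p-values below measure the spread between libraries and not between animals. Aorta and its pig cannot be told apart. In bulk RNA, fewer cells of a type and less RNA per cell cannot be told apart either.

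Library depth ran from 1144932 to 11128400 counts outside blood 2, which held 5634 counts over 302 genes with 0 of the 9 genes detected, and was left out of the main comparisons. In pig 248K, 3 libraries held few genes: microbrush 4 had counts in 3831 genes, wire 2 in 9714 and wire 3 in 10165, against 12651 to 20028 in the other libraries. Microbrush 4 had counts for 4 of the 9 genes, wire 2 for 7 and wire 3 for 6, and every other library except blood 2 had counts for all 9. Levels are CPM, counts relative to library size, after TMM scaling over 20 libraries. They are not divided by gene length, so they are compared between libraries and not between genes. The TMM factor was 0.339 in microbrush 6 and 0.340 in wire 3, so their scaled levels lie far above their plain CPM. A count of 0 allows a level of up to 3 counts, which was 0.489 to 1.52 CPM depending on the library. That limit covers counting error only.

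The 9 genes lie at separate places in the pig genome. In the RefSeq annotation of Sscrofa11.1, matched by symbol, CDH5 spans positions 27108560 to 27142145 of chromosome 6 and ADGRL4 spans 134362714 to 134462697 of the same chromosome. ESAM (51983019 to 51992415) and ROBO4 (52083757 to 52097784) lie on chromosome 9 with 91.3 kilobases between them. PECAM1 spans 14667643 to 14723296 of chromosome 12 and shares 4052 bases with the uncharacterised gene LOC110255989. CD93 spans 30233275 to 30240041 of chromosome 17, and CALCRL spans 92233264 to 92332459 of chromosome 15. ENG (chromosome 1, 268309379 to 268343861) shares 19 bases with FPGS, and ECSCR spans 141343818 to 141352618 of chromosome 2. How the counting treated strand is not given in the sources used here, so reads of overlapping genes may be mixed. The estimated count was not whole in 13 libraries for ENG and in 6 for ROBO4, and was whole within 0.005 for the other members.

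**Figure D1:**
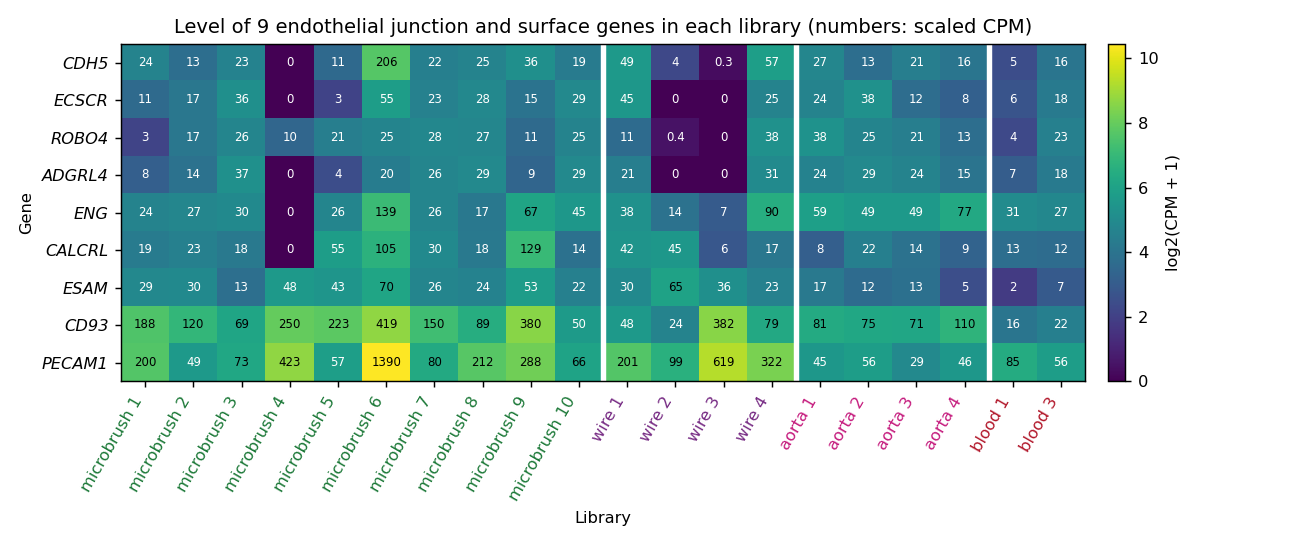
Heat map of the level of the 9 genes (rows) in 20 libraries (columns, coloured by group; blood 2 is not drawn). Colour shows log2(CPM + 1) and the printed numbers are TMM-scaled CPM; microbrush 4 and wire 3 show 0 or near 0 for CDH5, ECSCR and ADGRL4 beside high PECAM1, and wire 2 shows 0 for ECSCR and ADGRL4.

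CDH5, the cadherin that joins endothelial cells at adherens junctions, was measured in all 4 groups. Its aorta levels were 26.6, 12.6, 20.8 and 15.7 CPM, and its blood levels were 4.56 CPM in blood 1 and 15.6 CPM in blood 3. On the microbrush it ran from 0 to 206 CPM with a median of 22.5. The wires gave 49.0, 3.80, 0.264 and 57.1 CPM for wires 1 to 4. Microbrush 6, from the liver of pig 243K, stood far above the other 9 microbrush libraries, whose highest value was 35.7 CPM. In plain CPM microbrush 6 held 70.0, against 48.5 in microbrush 3. The value of 0 was in microbrush 4. Wires 1 and 4, both of pig 243K, were above every aorta library, and wires 2 and 3, both of pig 248K, were below every aorta library. In wire 3 the level rested on 1 count.

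PECAM1, an adhesion protein at the borders of endothelial cells and on platelets and white cells, was detected in all 20 libraries. The aorta libraries held 45.5, 55.7, 28.8 and 45.5 CPM, and blood held 84.9 and 55.7 CPM. The microbrush ran from 49.4 to 1389.8 CPM with a median of 140.0. The wires held 201, 98.7, 619 and 322 CPM. All 4 wires were above every aorta and blood library, and 9 of 10 microbrush libraries were above every aorta library. Microbrush 2 was below 1 of them. With TMM scaling the libraries with the highest levels were microbrush 6, wire 3 and microbrush 4. Of these, microbrush 4 and wire 3 were at 0 and at 1 count for CDH5. The order of aorta and blood depended on the scaling: the means were 43.9 and 70.3 CPM with TMM and 57.8 and 50.2 CPM with RLE scaling over the 20 libraries.

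ESAM, an immunoglobulin-type adhesion protein of endothelial tight junctions and of platelets, was low in blood. Blood held 2.49 and 6.78 CPM, and the aorta libraries held 17.5, 11.6, 13.4 and 4.68 CPM. The microbrush ran from 12.9 to 69.8 CPM with a median of 29.5, and the wires held 30.2, 64.5, 36.2 and 23.3 CPM. The lowest aorta library lay between the 2 blood libraries, whereas every microbrush and wire library was above both blood libraries. Only 2 blood libraries set that bound, and the share of all genes with such an order was not counted. ESAM was 1 of the members detected in all of microbrush 4, wire 2 and wire 3, with 48.0, 64.5 and 36.2 CPM.

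ROBO4, a roundabout receptor of endothelial cells that helps keep vessels stable, had its highest aorta level at 38.5 CPM and its lowest at 12.8, with 25.3 and 21.3 CPM in the other 2 aorta libraries. Blood held 3.94 and 22.6 CPM, so blood 3 lay inside the aorta range. Microbrush levels ran from 3.40 to 27.6 CPM with a median of 22.9. The wires held 11.4, 0.422, 0 and 38.4 CPM.

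ECSCR, a small membrane protein of endothelial cells that affects their movement and survival, followed a similar course. The aorta held 24.1, 37.9, 12.4 and 8.08 CPM and blood held 5.59 and 18.5 CPM. The microbrush ran from 0 to 55.3 CPM with a median of 19.9, and the wires held 45.0, 0, 0 and 24.8 CPM. Microbrush 6 was highest with TMM scaling and microbrush 4 was at 0. In plain CPM microbrush 6 held 18.7, below microbrush 3 at 74.3 and microbrush 10 at 56.8.

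ADGRL4, an adhesion G protein-coupled receptor found in vessels, had 23.8, 29.0, 24.3 and 15.3 CPM in the aorta and 7.46 and 18.3 CPM in blood. Across the microbrush libraries it ran from 0 to 36.7 CPM with a median of 17.0, and the wires held 20.8, 0, 0 and 31.4 CPM. With TMM scaling ADGRL4, unlike CDH5, PECAM1 and ENG, was not highest in microbrush 6, where it stood at 19.97 CPM. In plain CPM ENG was not highest there either, at 47.0 against 87.3 in microbrush 10. For ROBO4, ECSCR and ADGRL4 alike, blood 3 lay above the lowest aorta library and blood 1 below it.

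CD93, a lectin-like receptor of endothelial cells and myeloid cells that binds the matrix protein MMRN2, was higher in each aorta library than in both blood libraries. The aorta libraries held 81.5, 74.6, 71.5 and 109.8 CPM and blood held 15.5 and 22.0 CPM. The microbrush ran from 50.2 to 419 CPM with a median of 169, and the wires held 48.3, 24.5, 382 and 78.9 CPM. With TMM scaling all 18 libraries of vessel tissue, microbrush and wire were above both blood libraries, and the lowest of them was wire 2. In plain CPM wire 2, at 22.3, lay below blood 3 at 33.2, so its order depended on scaling. For CD93 too, the share of all genes with such an order was not counted. CD93 was high in microbrush 4 (250.2 CPM) and wire 3, where several other members were at 0.

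CALCRL, the receptor that reads adrenomedullin or calcitonin gene-related peptide depending on its RAMP partner, had 8.04, 21.8, 14.4 and 8.94 CPM in the aorta and 12.8 and 11.9 CPM in blood. Both blood libraries lay inside the aorta range. Microbrush levels ran from 0 to 129 CPM with a median of 21.0, and the wires held 41.9, 45.1, 6.08 and 16.7 CPM. With TMM scaling the highest values were in microbrush 9 and microbrush 6, liver libraries of pig 243K. In plain CPM microbrush 5, a kidney library, at 56.0, lay below microbrush 9 at 104.9 and above microbrush 6 at 35.6.

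ENG (endoglin), a co-receptor for bone morphogenetic protein signals that works with ACVRL1, had 58.8, 48.6, 48.6 and 77.0 CPM in the aorta and 31.5 and 27.3 CPM in blood. Aorta and blood did not overlap, but the share of all genes without overlap was not counted. Across the microbrush libraries it ran from 0 to 139 CPM with a median of 26.4, and 8 of the 10 libraries were below every aorta library. The wires held 37.6, 14.3, 6.88 and 90.0 CPM.

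The comparison of aorta with blood sorts the genes by vessel tissue against blood without using a catheter library. CD93 was the member that passed, with a higher level in aorta by a log2 fold change of 1.93 (SE 0.50, edgeR adjusted p = 0.000793). That was 1 of 9 members, where 4875 of 17082 genes, or 28.5%, were called in either direction. The median fold change of the members was 0.70 on the log2 scale, against 0.15 over all genes, and 7 of the 9 were positive. ESAM had 1.13 (SE 0.61, adjusted p = 0.162), ENG 0.73 (SE 0.45, adjusted p = 0.237), CDH5 0.71 (SE 0.52, adjusted p = 0.33) and ROBO4 0.70 (SE 0.49, adjusted p = 0.309). ADGRL4 had 0.63 and ECSCR 0.58, with adjusted p-values of 0.367 and 0.422. CALCRL had -0.15 (SE 0.52, adjusted p = 0.853), while its mean scaled over the 20 libraries was 13.3 CPM in aorta and 12.4 CPM in blood. PECAM1 had -0.96 (SE 0.43, adjusted p = 0.0827), toward blood. A p that misses the threshold does not show that a gene is alike in aorta and blood.

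Blood 3 decided most of these calls. Without it, 6 of the 9 members passed: CDH5 at 1.67 (adjusted p = 0.0349), ESAM at 1.86 (0.0488), ROBO4 at 2.25 (0.00309), ECSCR at 1.51 (0.0477) and CD93 at 2.06 (0.000944) were higher in aorta, and PECAM1 at -1.33 (0.00489) was lower. That fit has a lone blood library, assumed to vary as the aorta libraries do, and it called 39.7% of all genes tested, above the 28.5% with both blood libraries. Without blood 1, 14.1% of genes were called and CD93 again passed at 1.75, and ROBO4 was at -0.07 and ECSCR at -0.01. With blood 2 included 0 members and 1.49% of genes passed, with CD93 at 2.29 (adjusted p = 0.601). In a common fit of all libraries 0 members and 0.532% of genes passed, with CD93 at 1.98 (adjusted p = 0.73).

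Marker genes gave the make-up of the libraries. MYH11, the myosin heavy chain of smooth muscle, held 17774 to 37404 CPM in aorta, 243 to 70092 CPM on the microbrush, 38.4 to 859 CPM on the wire and 5.18 to 8.63 CPM in blood. In aorta against blood 28.5% of all genes were called. Among the markers, 8 of 8 for smooth muscle and 6 of 6 for fibroblasts and matrix were called higher in aorta. Of 16 white cell markers 13 were called lower in aorta, as were 6 of 7 red cell markers and 5 of 10 platelet markers. The white cell antigen PTPRC held 39.5 to 76.3 CPM in the aorta and 1523 to 3590 CPM in blood. The 16 white cell markers summed to 314 to 368 CPM in aorta and to 6211 and 2843 CPM in blood 1 and 3. The 11 measured platelet markers summed to 83.8 to 142 CPM in aorta and to 412 and 191 CPM in blood. PF4, ITGA2B and GP1BA, defining genes of platelets, were not analysed here. Blood 1 was thus the higher of the 2 blood libraries for white cell markers, platelet markers and, with TMM scaling, PECAM1. For PECAM1 the order turned in plain CPM (77.3 in blood 1 and 84.0 in blood 3) and with RLE scaling (47.8 and 52.7). Blood 1 was the lower for CDH5, ESAM, ROBO4, ECSCR, ADGRL4 and CD93, and the part of the blood cells in these levels was not tested.

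**Figure D2:**
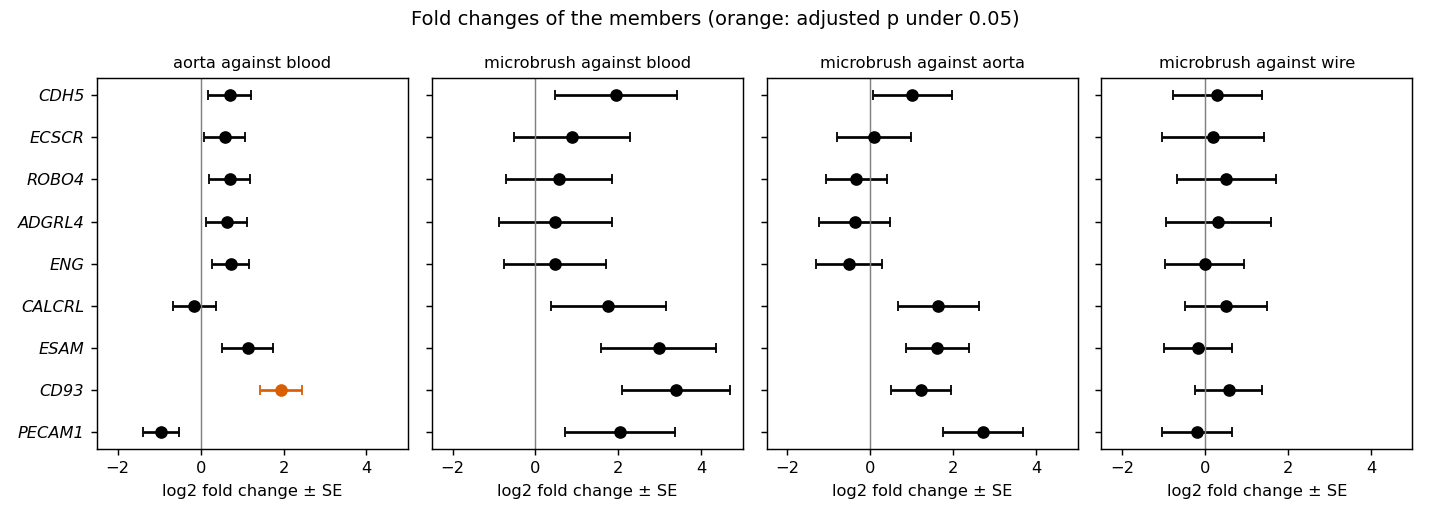
Log2 fold change (point) with its standard error (bar) for the 9 genes in 4 comparisons by edgeR; positive values are higher in the first group named. CD93 in aorta against blood (1.93) is the point past an adjusted p of 0.05, and the comparisons share libraries.

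The microbrush was next compared with blood, to ask how the members on the brush stand against the blood around it. All 9 members had positive fold changes, with a median of 1.76 on the log2 scale against 0.13 over all genes, and 0 passed. By edgeR 3 of 17832 genes passed, or 0.0168%, each lower on the microbrush, and 670 genes, including 2 of the 9 members, had an unadjusted p under 0.05. Those 2 were CD93 (3.40, SE 1.31, unadjusted p = 0.0127) and ESAM (2.97, SE 1.38, unadjusted p = 0.0365), each with an edgeR adjusted p of 1. Neither gene overlapped between the groups, but the share of all genes without overlap was not counted. DESeq2 called CD93 (adjusted p = 4.67e-05) and 1.7% of all genes. Limma voom with quality weights called CD93 (adjusted p = 0.00933), ESAM (adjusted p = 0.0159) and 5.93% of all genes. PECAM1 had 2.05 (SE 1.33), CDH5 1.94 (SE 1.47) and CALCRL 1.76 (SE 1.40). ECSCR, ROBO4, ADGRL4 and ENG lay between 0.48 and 0.88.

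The comparison with aorta gave 0 of 9 members passing by edgeR, where 21 of 16776 genes passed, or 0.125%, 10 higher and 11 lower on the microbrush, and 805 were at an unadjusted p under 0.05. With DESeq2 0 members and 1.26% of all genes passed. Limma voom called 4.48% of all genes and among the members ENG, at -1.005 with an adjusted p of 0.0307. PECAM1 was at 2.72 (SE 0.97, unadjusted p = 0.00894, edgeR adjusted p = 0.493), CALCRL at 1.64 (SE 0.97) and ESAM at 1.61 (SE 0.76, unadjusted p = 0.0426, adjusted p = 0.957). CD93 was at 1.22 (SE 0.72) and CDH5 at 1.02 (SE 0.96). ENG, ADGRL4 and ROBO4 were at -0.52, -0.38 and -0.33. The median over the members was 1.02, against -0.17 over all genes. This comparison uses the same microbrush libraries as the one with blood and the same aorta libraries as aorta against blood.

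Platelet and white cell markers stood beside PECAM1 in these comparisons. The platelet markers summed to 36.0 to 15598 CPM on the microbrush, with a median of 551, above the 142 CPM of the highest aorta library in 9 of 10 microbrush libraries. In the microbrush the white cell markers summed to 232 to 2099 CPM, with a median of 677, against at most 368 in aorta. None of these lists had a member called in microbrush against aorta: 10 of 11 platelet markers and 12 of 15 white cell markers had positive fold changes, with medians of 4.42 and 1.59. The part of these cells in the PECAM1 level was not tested.

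The microbrush against the bare wire asked what the brush holds beyond a wire in the same arteries. None of the 9 members passed by edgeR, and 0 of 16439 genes passed in all, or 0%. An unadjusted p under 0.05 was found for 518 genes and for 0 members, limma voom called 0 genes (0%), and with DESeq2 0.614% of genes passed, 96 toward the brush and 5 toward the wire, 0 of them members. The fold changes ran from -0.20 (PECAM1, SE 0.84) to 0.57 (CD93, SE 0.81), with CDH5 at 0.29 (SE 1.08), and every adjusted p was 1. Their median was 0.29, against 0.17 over all genes, and 6 of 9 were positive. The groups overlapped for all 9 members. With standard errors of about 1 on the log2 scale, differences of the size found here could not have been told from 0. Without microbrush 4, wire 2 and wire 3, a setting chosen after the data were seen, CDH5 was at -0.51.

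The wires of the 2 pigs can be set side by side. CDH5 averaged 53.1 CPM on the wires of pig 243K and 2.03 CPM on those of pig 248K, and ENG averaged 63.8 and 10.6 CPM. ECSCR and ADGRL4 averaged 34.9 and 26.1 CPM on the wires of pig 243K and were at 0 on both wires of pig 248K. For PECAM1, wire 2 was below both wires of pig 243K and wire 3 above both. In plain CPM wire 3, at 210.5, lay between wire 1 at 176 and wire 4 at 327, so this order depended on scaling. The test of the difference in device effect between the pigs, by an edgeR interaction term, called 0 of 16439 genes, or 0%, with 3241 at an unadjusted p under 0.05 and a smallest adjusted p of 0.176. The interaction was 9.74 for ADGRL4 (SE 3.16, adjusted p = 0.176), 9.55 for ECSCR (SE 3.08, adjusted p = 0.176) and 6.69 for ROBO4 (SE 2.64, adjusted p = 0.179). For genes at 0 in one arm such fitted values depend on the prior count and are no measure of size. CDH5 had 3.18 (SE 2.14, adjusted p = 0.474). Wires 2 and 3 also held the fewest detected genes of the wires, so the pig cannot be told apart from the wire library.

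A ratio inside a library does not depend on scaling between libraries. CDH5 was therefore taken as a percent of the counts of CDH5 and PECAM1 together, which sets a gene known from endothelium beside one shared with platelets and white cells. The share was 30.8% ± 10.7 in aorta (SD, n = 4), 15.0% ± 7.41 on the microbrush (n = 10) and 9.61% ± 9.24 on the wire (n = 4). Blood 1 had 5.09% (Wilson 95% interval 3.39 to 7.59) and blood 3 had 21.9% (17.9 to 26.5). Across the microbrush the share ran from 0% to 24.2% with a median of 14.5%. Microbrush 4 had 0 of 978 counts, for which the Wilson interval reaches 0.391%. Wires 1 to 4 had 19.6%, 3.70%, 0.043% and 15.1%, and wire 3 had 1 CDH5 count of 2343. The intervals cover counting error only. The summed level of genes best known from tissues not sampled, described below, was 395 and 396 CPM in microbrush 3 and 10, with the highest microbrush shares. In microbrush 4 and wire 3, with the lowest shares, it was 23.8 and 42.6 CPM. Microbrush 8 (10.4%) and wire 2 went the other way, with low shares beside 330 and 302 CPM. The part of such signal in the share was not tested, so a high share need not mean more endothelium.

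The CDH5 share was 5.35 percentage points higher on the microbrush than on the wire, which did not pass an exact two-sided permutation test (p = 0.276 over 1001 splits). Within pig 248K the difference was 11.5 points (exact permutation p = 0.19 over 21 splits), and within pig 243K it was -0.761 points (exact permutation p = 0.857). Without wire 3 the difference was 2.16 points and without wire 1 it was 8.68 points. The lowest shares were in microbrush 4, wire 3, wire 2 and blood 1. In the aorta the lowest library, at 18.5%, lay below 4 of the 10 microbrush libraries and below wire 1 and blood 3, so the groups overlapped.

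**Figure D3:**
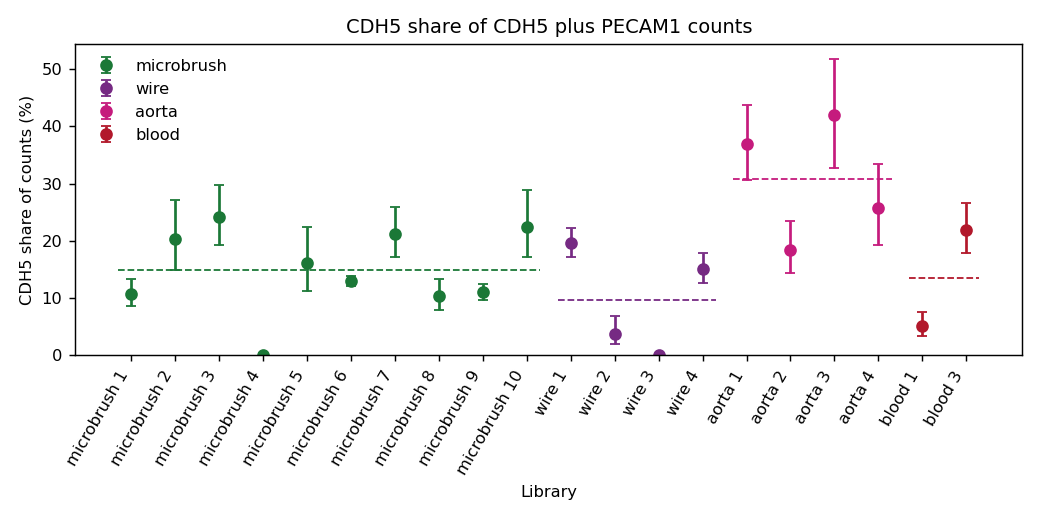
CDH5 counts as a percent of CDH5 plus PECAM1 counts in each library (point) with its Wilson 95% interval (bar); dashed lines are group means. The aorta libraries lie between 18.5% and 42.0%, and microbrush 4, wire 3 and wire 2 lie lowest among the catheter libraries.

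Signal that does not come from the tissues sampled was also looked for, since it bears on how low levels are read: 42 genes best known from tissues that were not sampled (brain, retina, germ cells, pancreas, pituitary, thyroid, skeletal muscle precursors, gut, bone, pigment cells, lung and embryo) were read in the same way, and 37 of them were in the table. This list was chosen after the data were seen. Their summed level was 251 to 356 CPM in aorta, 111.2 and 249.8 CPM in blood 1 and 3, 23.8 to 396 CPM on the microbrush and 42.6 to 457 CPM on the wire. Markers of epithelial and parenchymal cells, such as the hepatocyte gene ALB and the kidney tubule gene LRP2, summed to 120.8 to 161 CPM in aorta and to 59.7 and 107.4 CPM in blood. In aorta against blood 0 of the 21 tested genes of other tissues and 0 of the 8 epithelial and parenchymal markers were called, and 20 of 21 and 7 of 8 had positive fold changes, with medians of 0.81 and 0.54. The median of the 9 members, 0.70, lay between those values. The source of the counts of these genes was not tested. Nor was it tested how much of a low member level is signal of the same kind. Such low levels include those of CDH5, ESAM, ROBO4, ECSCR, CALCRL and ADGRL4. A low level here therefore need not be expression in endothelial cells. CDH5 was above all 37 genes of other tissues in 0 of 4 aorta, 0 of 2 blood, 3 of 10 microbrush and 1 of 4 wire libraries. ROBO4, ECSCR and ADGRL4 were above all 37 in 0 libraries of each group. PECAM1 and CD93 were above all 37 in 10 of 10 microbrush libraries, and in 1 and 4 of the 4 aorta libraries. These comparisons between genes take no account of gene length.

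Across the 14 microbrush and wire libraries, CDH5, ROBO4, ECSCR, ADGRL4 and ENG had positive correlations with each other, from 0.53 to 0.85 over the 10 pairs. Correlations here are Spearman's rho of log2(CPM + 1), given as descriptions, and the libraries share pigs, depth differences and scaling. The pairs were not computed without microbrush 4, wire 2 and wire 3, where ECSCR and ADGRL4 were at 0. How far the correlations rest on those libraries was not tested. ADGRL4 went with ROBO4 (0.85) and with ECSCR (0.83), and CDH5 went with ENG (0.79) and ECSCR (0.77). PECAM1 stood at 0.28 with CDH5, at 0.01 with ENG, at -0.02 with ECSCR, at -0.15 with ROBO4 and at -0.21 with ADGRL4, and at 0.51 with CD93. ESAM was at -0.57 with ROBO4 and at 0.38 with PECAM1.

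Sums over marker lists ran with several members. ADGRL4 had a rho of 0.94 with the summed epithelial and parenchymal markers, and 0.89 over the 11 libraries left without microbrush 4, wire 2 and wire 3. The same values were 0.81 and 0.66 for ROBO4 and 0.77 and 0.53 for ECSCR. For CDH5 they were 0.45 and -0.14 and for ENG 0.55 and 0.06, so those relations rested on the 3 libraries with few genes. ESAM ran the opposite way, at -0.76 and -0.78, and CD93 was at -0.79 and -0.89 with the summed genes of other tissues. CD93, CALCRL and ESAM had rho values of 0.64, 0.54 and 0.48 with the summed smooth muscle markers, and 0.72, 0.76 and 0.70 over the 11 libraries. PECAM1 was at 0.73 with the platelet markers and 0.60 with the white cell markers, and at 0.53 and 0.38 over the 11 libraries. CDH5 was at 0.07 with the platelet markers over 14 libraries and at 0.59 over 11. With the same markers ECSCR was at 0.029 and 0.518, and ESAM at 0.235 and 0.055. For CD93 and the white cell markers the values were 0.24 and -0.036. The part of any of these lists in a member's level was not tested.

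**Figure D4:**
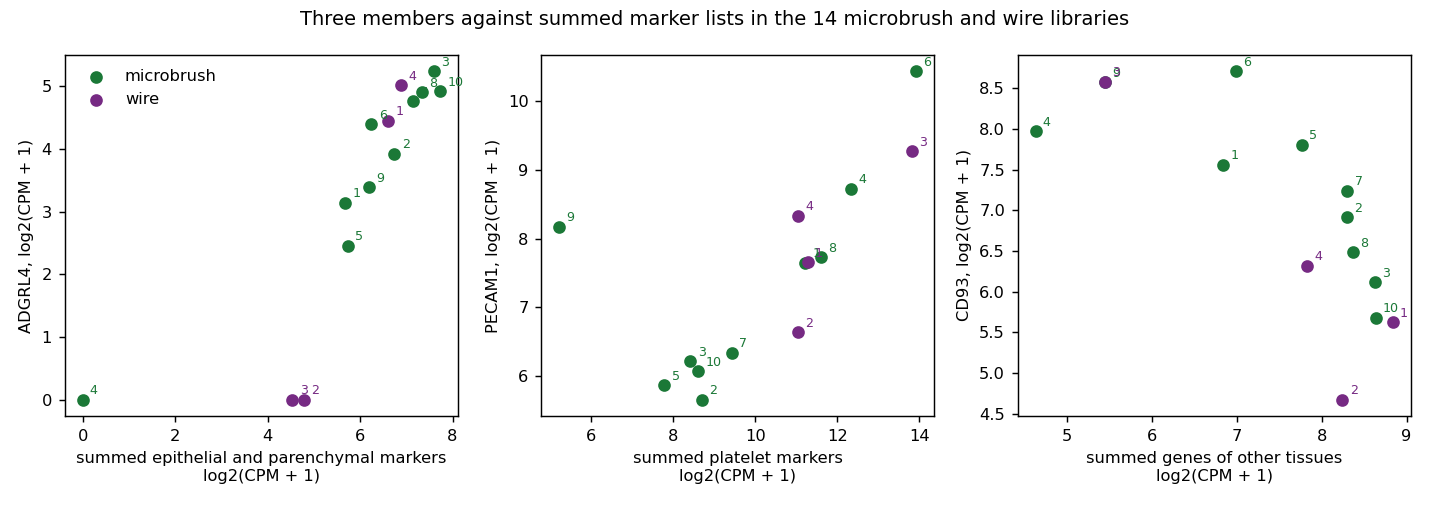
ADGRL4, PECAM1 and CD93 against summed marker lists, both as log2(CPM + 1), in the 14 microbrush (green) and wire (purple) libraries, with each replicate number beside its point. ADGRL4 lies along the epithelial and parenchymal sum (rho 0.94), PECAM1 rises with the platelet sum (rho 0.73) except for microbrush 9, and CD93 falls with the summed genes of other tissues (rho -0.79).

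The genes most like CDH5 across these 14 libraries, among 13723 genes, were NPHP4 (rho 0.96), CLEC3B (0.96), ATP1B1 (0.94), GASK1B (0.93) and SPTBN5 (0.93). Those most like PECAM1 were CLIP1 (0.93), SCYL2 (0.93), MAPRE1 (0.93), CAVIN2 (0.92) and SLK (0.92). The 2 lists share no gene.

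Partners of the members were read from lists of names. Of 16 genes of junction partners, the catenins and scaffold proteins that bind the cytoplasmic side of cadherins and tight junction proteins, 9 were called higher and 2 lower in aorta than in blood. Over all genes in that comparison 28.5% were called. The cell polarity scaffold PARD3 rose by 5.75 (SE 0.64) and the junction scaffold AFDN by 2.76 (SE 0.50). PTPN6, a phosphatase of blood cells that binds the tail of PECAM1, fell by 4.19 (SE 0.48), with 9.17 to 13.3 CPM in aorta and 121.2 to 228 CPM in blood. Of 16 receptor partners 7 were called higher and 0 lower in aorta. SLIT3, a secreted guidance ligand, rose by 6.05 (SE 0.75), and IGFBP7, a matrix protein that binds CD93, rose by 5.44 (SE 0.79). Smooth muscle markers moved with these lists, as given above. Adjusted p-values for the named genes were at most 5.81e-07 by edgeR.

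Of 22 tested further endothelial identity genes, 3 were called higher and 2 lower in aorta than in blood, and 19 had positive fold changes, with a median of 0.55. Over all genes in that comparison 28.5% were called and the median was 0.15, so these calls do not set the list apart. CLEC14A, an endothelial lectin that binds MMRN2 as CD93 does, rose by 2.16 (SE 0.55, adjusted p = 0.000605), and the connexin GJA5 rose by 1.65 (SE 0.48, adjusted p = 0.0032). FLI1, a transcription factor of endothelium and of blood cells, fell by 3.91 (SE 0.45, adjusted p = 2.84e-16). CLEC14A and MMRN2 were at 0 in microbrush 4, wire 2 and wire 3, as ADGRL4 and ECSCR were. In the same 3 libraries KDR, a receptor for vascular endothelial growth factor, was at 369, 86.0 and 901 CPM. RAMP2, the partner that makes CALCRL an adrenomedullin receptor, ran from 0 to 141 CPM on the microbrush with a median of 6.83, and ACVRL1, the receptor that ENG serves, from 17.3 to 160.1 CPM with a median of 27.6. In microbrush against wire, blood or aorta, 0 genes of these 3 lists were called.

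The kidney and liver microbrush libraries were compared last. None of the 9 members passed by edgeR, 0 of 15013 genes passed in all, or 0%, and 238 genes were at an unadjusted p under 0.05. With DESeq2 66 genes (0.44%) passed and with limma voom 0 (0%), and 0 members did with either. PECAM1 averaged 89.3 ± 62.4 CPM in kidney and 478 ± 524 CPM in liver libraries (SD, n = 5 each), a log2 difference of -2.18 (SE 0.91, unadjusted p = 0.0229, edgeR adjusted p = 1). CDH5 averaged 18.1 ± 6.07 and 57.7 ± 84.1 CPM, a difference of -1.50 (SE 1.13). Kidney was lower for 8 of 9 members, with a median of -0.56 against 0.50 over all genes. Microbrush 6 carried much of this: without it CDH5 was at -0.18 and PECAM1 at -1.50, and the median over the members was -0.18. The platelet markers also lay toward liver in 9 of 10 tested genes, with a median of -2.11 and 0 called, and their part in the PECAM1 difference was not tested.

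Scaling moved the centre of these comparisons. Scaled by RLE, the median over all genes went from 0.17 to 0.60 in microbrush against wire, from 0.13 to 0.69 against blood, from -0.17 to -0.33 against aorta and from 0.50 to 0.83 in kidney against liver. In aorta against blood it went from 0.15 to 0.14. The median over the members was 0.36, 1.78, 0.32, -0.21 and 0.71 in these 5 comparisons with RLE. No member's call differed between the scalings.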

How the data were processed

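The authors deposited a merged table of estimated counts for each Ensembl gene, without scaling between libraries. Per the submitters' processing notes, Salmon and DESeq2 were used with the build Sscrofa11.1. Per the labels, RNA was extracted with a reduced-volume RNAdvance Tissue kit and made into libraries with SMARTer Pico. Trimming, strand setting and annotation release are not given in the sources used here.

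Symbols came from a supplied list of gene names, which matched 14692 genes and left 9666 under their identifiers. Because 11.9% of values were not whole, tests used rounded counts. Only the libraries compared entered each fit, in R 4.3.3 with edgeR 4.0.16: filterByExpr at a minimum count of 10, TMM scaling, robust quasi-likelihood test, Benjamini-Hochberg adjusted p under 0.05 over all genes tested. Blood 2 was left out. Shares were compared by exact permutation in scipy 1.17.1, over libraries with at least 20 counts of the gene pair. No pair of libraries agreed within sampling noise. The edgeR test was run on simulated counts. These had the same spread setting for every gene, no shared pigs and no libraries with few genes, so that check does not cover such features.

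All members are described. Named from each list are up to 3 genes with the smallest p and fixed defining markers; other partner genes were named after their values were seen. The 5 genes most like CDH5 and PECAM1 were taken by Spearman's rho. Members, lists and tests were chosen with earlier results of these data known. Alternatives covered RLE scaling, other filters, DESeq2 1.42.0, limma 3.58.1 voom with quality weights, a common fit, 2 abundant unnamed identifiers left out, blood 2 included, the pig as a replicate block, each pig, each organ, and replicates left out.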

Additional observations from a re-analysis of the deposited data

Results flagged for a closer look

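In 30 gene and group combinations, a library at one end was set against the spread of its group by Dixon's criterion, and 4 met it. For normally distributed values chance meets it in about 1 in 20 groups. Some of these groups were skewed, as for CDH5 on the microbrush (mean 37.9, median 22.5 CPM), so that rate may not hold. Microbrush 6 stood apart from the other 9 microbrush libraries for CDH5 (206 CPM), PECAM1 (1389.8 CPM) and ENG (139 CPM). These are the same library, and its scaled levels rest on a TMM factor of 0.339. Its plain CPM was 70.0 for CDH5, 471 for PECAM1 and 47.0 for ENG. For ENG that was below microbrush 10, at 87.3. Wire 3 stood apart from the other 3 wires for CD93 (382 CPM), with a TMM factor of 0.340 and a plain CPM of 129.8. Microbrush 6 and wire 3 also held the highest summed platelet markers, at 15598 and 14511 CPM, whose part in these levels was not tested.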

How the results depend on the processing

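Of the members' calls, microbrush against blood gained 1 with DESeq2 and 2 with voom, microbrush against aorta gained 1 with voom, and aorta against blood fell to 0 in the common fit and with blood 2 included and ran from 1 to 6 with replicates left out. The pig as a replicate block changed no member's call; for the CDH5 share its exact permutation p was 0.245. The percent of genes called in microbrush against wire was 0.614 with DESeq2 and 0.279 in pig 248K alone. In microbrush against blood it was 0 with RLE, 0.0644 with no filter, 1.70 with DESeq2, 5.93 with voom, 0.0658 in the common fit, 0.0391 without 2 abundant identifiers and 0 to 0.027 with replicates left out. In microbrush against aorta it was 1.26 with DESeq2, 4.48 with voom, 0.197 in the common fit and 0.0407 to 0.215 with replicates left out. In aorta against blood it was 0.532 in the common fit, 1.49 with blood 2 included and 14.1 to 39.7 with replicates left out, and in kidney against liver 0.00466 with no filter, 0.44 with DESeq2 and 5.55 in pig 243K alone. The sign of microbrush against wire turned for CDH5 with voom (-0.95), in kidney alone (-0.75), without microbrush 4, wire 2 and wire 3 (-0.51), and ran from -0.26 to 1.08 with replicates left out. It turned for PECAM1 in pig 243K alone (0.51) and liver alone (0.24), with -0.48 to 0.13 with replicates left out, and for CD93 in pig 248K alone (-0.04). Over 18 alternatives of that comparison the sign also turned in 8 for ENG, 5 for ECSCR, 4 each for ESAM and ADGRL4 and 3 each for ROBO4 and CALCRL, and against aorta it turned for ECSCR in 6 of 12. In microbrush against blood, with replicates left out, ROBO4 ran from -0.21 (without blood 1) to 1.97, ADGRL4 from -0.032 (without blood 1) to 0.942 and ENG from -0.051 (without blood 3) to 0.573, and ENG was at -0.059 with voom. In aorta against blood ROBO4 ran from -0.066 (without blood 1) to 2.249 (without blood 3), ECSCR from -0.009 to 1.507 for the same libraries and CALCRL from -0.48 to 0.03 (without aorta 1), and CALCRL was at 0.068 with blood 2 included. Over 20 alternatives kidney against liver turned in 6 for ROBO4, 5 each for ECSCR and ENG, 4 for ADGRL4 and 1 for CALCRL, and for CDH5 in pig 248K alone (0.63), and the CDH5 share turned in pig 243K alone (-0.761 points). The cause of these changes was not tested, beyond the smaller number of libraries where some were left out. Mean levels of CDH5, PECAM1, CD93, ADGRL4 and ENG in aorta under RLE (25.5, 57.8, 109.9, 31.2 and 75.9 CPM) moved by more than the SD between libraries. With a pair of usable blood libraries and few counts for most members, small differences could not be detected.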
